A study of Mus musculus with 6 samples.

Results

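The alpha and beta T-cell receptor V genes are the gene segments that give each alpha beta T cell the outer part of its antigen receptor. Members were all genes of the CD45-positive matrices whose symbol starts with Trav or Trbv and that had at least 10 UMIs (unique molecular identifiers, each 1 captured mRNA molecule) over the 3 CD45-positive libraries. This left 96 members, 74 Trav and 22 Trbv, of 163 such genes (128 Trav on chromosome 14 and 35 Trbv on chromosome 6) among 32285 genes in all. The UMI sums chose the members and are given as a description only.

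Skin cells came from female mice of 17 to 18 weeks, either wild type (labelled WT, genotype label C57/BL6) or carrying UP_Del, a deletion of the upstream enhancer of Il2ra, the gene for the alpha chain of the interleukin 2 receptor. Mice with the deletion either had alopecia (hair loss) or had none, and all 3 groups were untreated. The skin was freed of its hypodermis, digested, and sorted into live CD45-positive leukocytes and live CD45-negative cells. Each group gave 1 library per sort on the 10x Genomics 5' HT v2 kit. How many mice went into a library is not stated in the labels, so a V gene shared by several cells of 1 library may come from 1 mouse. Comparisons between the groups therefore rest on single libraries, without replicates. Intervals are at 95% (exact binomial for shares, exact Poisson for summed counts) and cover counting error only.

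A developing T cell joins 1 V segment to a J segment, with a D segment between them in the beta chain, and each joined gene is transcribed from the promoter of its V segment. The beta chain is made first, the alpha chain second, and the alpha locus encloses the delta locus, so that some Trav segments (those with dv in their symbol) can also be joined to delta segments. A 5' kit reads the start of the transcript, where the V segment lies. The mouse alpha locus of this strain holds large repeated blocks, and the copies of a segment carry d or n in their symbol.

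The segments that the results turn on differ enough to be told apart among the beta genes, and less so among the alpha copies. The 3' ends of 6 beta V segments are shown because they differ between the T-cell classes, between the libraries or recur beside 1 alpha gene. They are the last 90 bases of each V exon in GENCODE vM21 (build GRCm38, the same as mm10), 5' to 3', with the last in-frame cysteine codon in capitals. This codon lies near the start of the joined region (in Trbv1 a further cysteine codon lies shortly before it). All 6 lie on the plus strand of chromosome 6, Trbv16 at chr6:41152141-41152230, Trbv20 at chr6:41188888-41188977, Trbv3 at chr6:41048739-41048828, Trbv1 at chr6:40891796-40891885, Trbv29 at chr6:41271792-41271881 and Trbv23 at chr6:41216437-41216526.
Trbv16: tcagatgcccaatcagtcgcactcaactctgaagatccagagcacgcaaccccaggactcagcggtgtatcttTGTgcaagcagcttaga
Trbv20: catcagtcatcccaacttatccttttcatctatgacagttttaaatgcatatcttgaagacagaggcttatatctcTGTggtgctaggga
Trbv3: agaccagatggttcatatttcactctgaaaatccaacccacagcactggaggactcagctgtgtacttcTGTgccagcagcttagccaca
Trbv1: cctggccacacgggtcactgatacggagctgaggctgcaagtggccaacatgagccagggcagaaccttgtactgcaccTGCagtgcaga
Trbv29: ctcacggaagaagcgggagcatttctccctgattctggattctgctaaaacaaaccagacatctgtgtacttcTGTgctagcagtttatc
Trbv23: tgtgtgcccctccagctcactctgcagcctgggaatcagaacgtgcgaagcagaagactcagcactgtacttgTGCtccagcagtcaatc

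Trav15d-1-dv6d-1, an alpha or delta segment found in gamma delta T cells, is shown with Trav15n-1 and Trav15-1-dv6-1 as the last 120 bases of the V exon, with bases unlike Trav15d-1-dv6d-1 in capitals. The 3 stretches lie at chr14:52863817-52863936, chr14:53174777-53174896 and chr14:53560128-53560247 on the plus strand. Trav15n-1 has the same 120 bases, and its whole V exon of 303 bases is 100% identical, so a read from one exon cannot be told from a read of the other.
Trav15d-1-dv6d-1: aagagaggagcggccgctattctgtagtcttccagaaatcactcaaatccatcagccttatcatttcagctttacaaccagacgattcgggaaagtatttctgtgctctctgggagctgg
Trav15n-1: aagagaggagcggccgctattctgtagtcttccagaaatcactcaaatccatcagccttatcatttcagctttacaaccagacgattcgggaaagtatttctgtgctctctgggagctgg
Trav15-1-dv6-1: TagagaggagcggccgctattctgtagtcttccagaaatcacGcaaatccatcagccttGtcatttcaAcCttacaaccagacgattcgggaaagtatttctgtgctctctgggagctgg

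Shared sequence went with absence from the matrices among the alpha genes. A window of 60 bases was called a gene's own when no other Trav or Trbv transcript of GENCODE vM21 held it. Among the 22 Trbv members the median share of own windows was 100%. Of the 74 Trav members, 1 had no own window, the iNKT cell gene Trav11, and the median was 62.0%. Of the 38 Trav genes with no UMI, 29 had no own window, and of the 16 with 1 to 9 UMIs, 9 had none. The d, n and unsuffixed alpha copies are therefore uncertain where little sequence is their own (27 of the 74 Trav members had under 50% own windows). Of the 10 Trbv genes with no UMI, all 10 are annotated as pseudogenes, against 1 of the 22 Trbv members. Just inside the threshold of 10 UMIs were Trav4d-2 with 12, Trav23 with 14 and Trav9d-1 with 16 UMIs, and just outside were Trbv21 and Trav13d-3 with 8 each and Trav20 with 5. Trbv31 was the only member on the minus strand.

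Members held 14247 of 38407339 UMIs in the wild-type library, 5803 of 20116378 in the no-alopecia library and 11257 of 50057357 in the alopecia library. After filtering, 6313, 3234 and 8852 cells were left, with median depths of 4544, 4827 and 4083 UMIs. T cells needed at least 3 UMIs of Cd3d, Cd3e and Cd3g together and more UMIs of 12 T-cell markers than of 18 markers of other cells. Foxp3 T cells (regulatory T cells are defined by the transcription factor Foxp3), Foxp3-negative Cd4 T cells and Cd8b1 T cells were then taken by UMIs of those genes, with at least 1 UMI of Trac, the alpha constant gene, and no more of Trdc, the delta constant gene. In the order wild type, no alopecia and alopecia, there were 235, 79 and 281 Foxp3 T cells, 364, 92 and 206 Foxp3-negative Cd4 T cells and 337, 36 and 129 Cd8b1 T cells. Gamma delta T cells (at least 3 Trdc UMIs and more Trdc than Trac) numbered 715, 288 and 973. A further 1592, 739 and 1839 T cells met none of the 4 rules, most of them with no Cd4, Cd8b1 or Foxp3 UMI.

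The classes carried their other markers. Ctla4, an inhibitory receptor of regulatory T cells, stood at 2657, 3404 and 2817 CPM (UMIs scaled to the same total in each class) in Foxp3 T cells and at 530.4, 442.4 and 571.9 in Foxp3-negative Cd4 T cells. Cd8a, the partner chain of Cd8b1, stood at 728.9, 1099 and 796.5 CPM in Cd8b1 T cells and at 0 to 14.2 CPM in the Foxp3 and Cd4 classes. Markers of other cells were low in the 3 alpha beta classes, with Lyz2 of macrophages at 0 to 40.9 CPM, Cd79a of B cells at 0 to 2.76 and Col1a1 of fibroblasts at 0 to 4.30. These genes are among the 18 markers of other cells in the T-cell rule, which itself favours low levels of them. Rag1, Rag2 and Dntt, which carry out V segment joining in the thymus, had no UMI in the 4 classes of any library, and Ptcra, the surrogate alpha chain of thymocytes, reached at most 0.486 CPM.

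A cell was given a Trbv (or Trav) gene where 1 gene had at least 3 UMIs and at least 80% of that chain's UMIs in the cell. In the 3 alpha beta classes together, 305 of 936 wild-type cells (32.6%), 65 of 207 no-alopecia cells (31.4%) and 176 of 616 alopecia cells (28.6%) had an assigned Trbv gene. An assigned Trav gene was found in 225 (24.0%), 62 (29.95%) and 127 (20.6%) of them. Of 825, 786 and 1976 cells with no Cd3 UMI and at least 20 UMIs of other cells' markers, 1, 0 and 1 had an assigned Trbv gene. These cells were chosen for having no Cd3 UMI, which also favours few V gene UMIs. How much free RNA T cells hold was therefore not measured. The 0 of 786 allows a share of up to 0.382% by the rule of 3 counts of the total, and 0.468% as the exact binomial limit. At least 2 UMIs of each of 2 Trbv genes were seen in 5.02%, 2.90% and 1.79% of alpha beta cells.

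All 22 Trbv members were assigned in at least 1 alpha beta cell, and 10 of them made up 75.6% of the 546 cells with an assigned gene. Trbv16 led with 70 cells, namely 47 of 305 in wild type (15.4%, 11.6 to 19.96), 7 of 65 in no alopecia (10.8%, 4.44 to 20.9) and 16 of 176 in alopecia (9.09%, 5.29 to 14.3). Trbv3 was found in 21 (6.89%, 4.31 to 10.3), 17 (26.2%, 16.03 to 38.5) and 16 cells (9.09%, 5.29 to 14.3), and was thus the leading gene of the no-alopecia library alone. Trbv1 was found in 24 (7.87%), 3 (4.62%) and 25 cells (14.2%) and led in alopecia. The 3 members of the Trbv13 subgroup, which carry the beta chains known to pair with the invariant chains of innate-like T cells, followed in wild type. Trbv13-1 had 29, 4 and 14 cells, Trbv13-2 had 30, 1 and 9, and Trbv13-3 had 27, 3 and 18. Trbv15, Trbv31, Trbv19 and Trbv12-2 had 24 to 27 cells each over the 3 libraries.

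**Figure D1:**
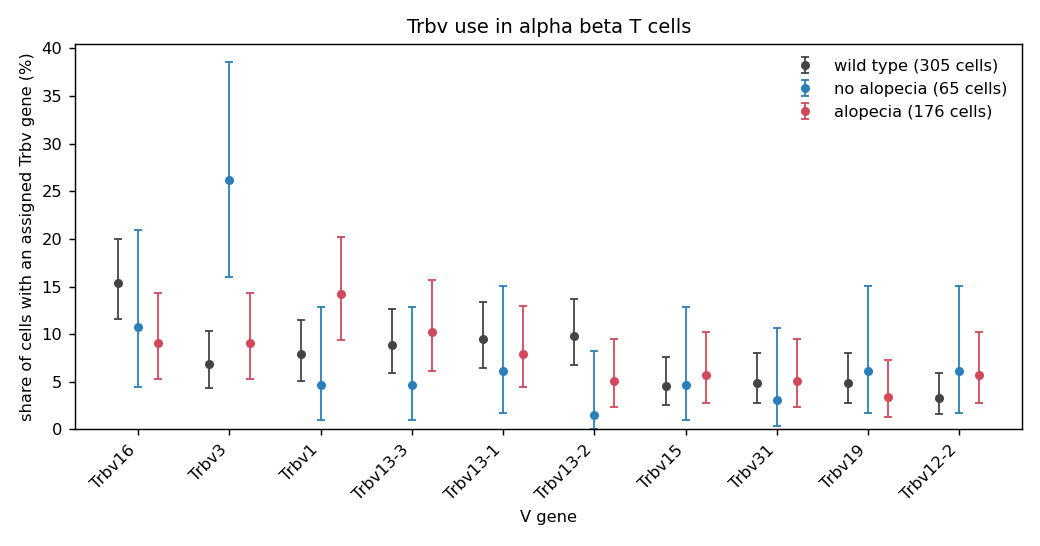
Share of alpha beta T cells (y axis, percent of cells with an assigned Trbv gene) that carried each of the 10 leading Trbv genes (x axis) in the wild-type, no-alopecia and alopecia libraries. Points are shares and bars exact binomial 95% intervals; Trbv3 stood at 26.2% in no alopecia against 6.89% in wild type and 9.09% in alopecia.

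Alpha gene use was spread more widely. Over the 3 libraries 59 Trav genes were assigned in 414 alpha beta cells, and the 10 leading ones made up 44.2%. Trav8n-2 led with 35 of 225 wild-type cells (15.6%, 11.1 to 21.0), 1 of 62 no-alopecia cells (1.61%, 0.0408 to 8.66) and 4 of 127 alopecia cells (3.15%, 0.865 to 7.87), so the wild-type interval lay above the other two. Trav14d-3-dv8 had 7 (3.11%), 10 (16.1%, 8.02 to 27.7) and 3 cells (2.36%, 0.490 to 6.75). Trav7-4 had 8, 8 and 3 cells, and Trav16n 8, 5 and 2, with their highest shares in no alopecia (12.9% and 8.07%). Trav13-1 had 10, 2 and 9 cells and Trav4-4-dv10 had 7, 0 and 10. The other leading alpha genes, Trav14n-3, Trav12-2, Trav7-5 and Trav7d-3, had 2 to 9 cells in each library. Copies with n in their symbol made up 28.4%, 22.6% and 18.1% of assigned cells, and copies with d 14.7%, 29.0% and 10.2%.

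**Figure D2:**
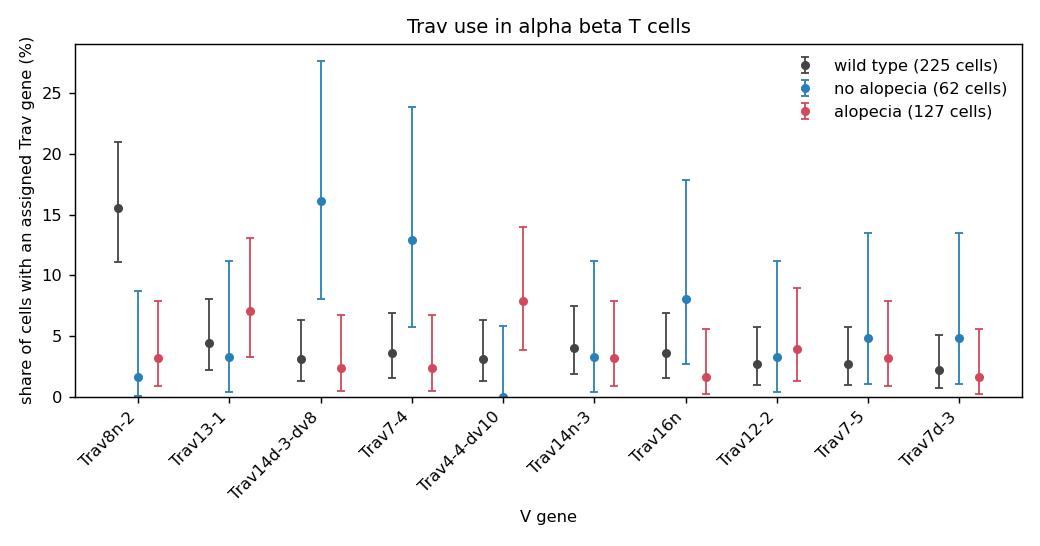
Share of alpha beta T cells (y axis, percent of cells with an assigned Trav gene) that carried each of the 10 leading Trav genes (x axis), with exact binomial 95% intervals as bars. Trav8n-2 was highest in wild type at 15.6%, and Trav14d-3-dv8 and Trav7-4 in no alopecia at 16.1% and 12.9%.

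Spread over genes can be put as an effective number, the number of equally used genes that would give the same chance that 2 random cells share a gene. For Trbv it was 13.7 in wild type, 9.91 in no alopecia and 14.4 in alopecia. For Trav it was 25.2, 19.3 and 40.0. Within the 3 alpha beta classes the lowest values were in Foxp3-negative Cd4 T cells without alopecia and, for Trav, in wild-type Cd8b1 T cells. In the former it was 5.35 for Trbv, where Trbv3 held 12 of 31 assigned cells. For Trav it was 6.99 there, where Trav14d-3-dv8 held 10 of 32 assigned cells. In the latter it was 7.13, where Trav8n-2 held 32 of 89 assigned cells.

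Between the libraries, only members with at least 20 assigned cells over the pair were compared, and those past a 2-fold ratio of shares were counted. Of 4 such members, Trbv1 (3.08-fold) and Trbv13-3 (2.22-fold) had higher shares with alopecia than without, and Trbv3 had a lower one (9.09% against 26.2%). Of 7 members in no alopecia against wild type, Trbv3 was higher (3.80-fold), and Trbv13-2 (1.54% against 9.84%) and Trav8n-2 (1.61% against 15.6%) were lower. Of 13 members in alopecia against wild type, Trav8n-2 alone was past the fold (3.15% against 15.6%). The minimum of 20 cells is a sum over the pair, and several members met it through the library with the higher share alone. This was so for Trbv1 (25 alopecia cells against 3 without), Trbv13-2 (30 wild-type cells against 1 without alopecia) and Trav8n-2 (35 wild-type cells in both its comparisons). Trbv3 reached it through its 21 wild-type cells in no alopecia against wild type, where wild type had the lower share. These are single libraries, and no p-value was computed.

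Summed levels allow the members to be set beside all genes. Among genes with at least 50 UMIs over both libraries, 2.72% of 7177 genes differed 2-fold in CPM of alpha beta T cells between alopecia and no alopecia (1.98% higher, 0.738% lower), against 14 of 26 members (6 higher, 8 lower). The share was 3.94% of 8252 genes for no alopecia against wild type (1.18% higher, 2.76% lower), with 18 of 43 members (8 higher, 10 lower). For alopecia against wild type it was 3.11% of 8918 genes (1.58% higher, 1.53% lower), with 14 of 51 members (7 higher, 7 lower). The median log2 ratio of the members was -0.20, -0.02 and -0.04, beside 0.03, 0.03 and 0.07 for all genes. Members past the fold thus lay on both sides. The minimum of 50 UMIs is a sum over both libraries, for members as for all genes. A gene that is high in only 1 library can therefore pass it through that library alone. A V gene is transcribed in the few cells that chose it, and its counts come in bursts of several UMIs per cell, so Poisson intervals on these sums are too narrow.

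In CPM, the members furthest up with alopecia against no alopecia were Trbv29 (30.9 against 2.89), Trav13-4-dv7 (21.1 against 3.85), Trav4-4-dv10 (25.7 against 7.70) and Trbv13-3 (43.6 against 13.5). Those furthest down were Trbv23 (4.92 against 49.1), Trav14d-3-dv8 (9.14 against 79.8), Trav16n (7.03 against 30.8) and Trav7-4 (12.7 against 45.2). Without alopecia against wild type, Trav4-3 (32.7 against 4.12), Trbv23 (49.1 against 6.28), Trav14d-3-dv8 (79.8 against 10.4) and Trav7-5 (35.6 against 9.81) were furthest up. Furthest down were Trbv29 (2.89 against 22.2), Trav8n-2 (9.62 against 54.7), Trav3-1 (1.92 against 10.2) and Trav7-6, which had 0 UMIs without alopecia and 88 in wild type. These passed the minimum of 50 UMIs through wild type alone (113, 279, 52 and 88 UMIs, against 3, 10, 2 and 0 without alopecia). With alopecia against wild type, Trav13-4-dv7 (21.1 against 3.73), Trav4-3 (13.0 against 4.12), Trav7-5 (20.7 against 9.81) and Trav21-dv12 (10.9 against 5.30) led the higher members. Trav8n-2 (10.2 against 54.7), Trav16d-dv11 (2.81 against 9.81), Trav7-6 (5.97 against 17.3) and Trav16n (7.03 against 18.6) led the lower ones. Other named members also passed the minimum through their higher library alone. With alopecia against no alopecia these were all the higher ones (88, 60, 73 and 124 UMIs with alopecia), and Trbv23 and Trav14d-3-dv8 (51 and 83 without). With alopecia against wild type they were all the lower ones (279, 50, 88 and 95 UMIs in wild type) and Trav13-4-dv7 (60 with alopecia). The 2 comparisons with wild type share that library, and the 2 with no alopecia share that one.

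The T-cell classes could be tested, since each contrast was repeated in 3 libraries. Whether regulatory, Cd4 and Cd8 T cells of skin used the same V genes was examined with edgeR's quasi-likelihood test on UMIs summed per class and library, with the library as a block and Benjamini-Hochberg adjustment over all 9907 genes tested, 68 of them members. In Foxp3 against Foxp3-negative Cd4 T cells, 17.3% of all genes passed an adjusted p of 0.05 (8.98% higher, 8.32% lower), and 7 of 68 members did (2 higher, 5 lower). In Cd8b1 against Foxp3-negative Cd4 T cells, 6.16% of all genes passed (2.75% higher, 3.41% lower), and 7 members did (5 higher, 2 lower). The members' share was below the background in the first contrast. In the second it was above the background for higher members (5 of 68 against 2.75%) and near it for lower ones (2 of 68 against 3.41%), on few calls. The median log2 ratio of the members was -0.05 and -0.38 in the 2 contrasts, and of all genes 0.03 and 0.00. When each V gene was fitted as a share of the UMIs of all V genes, with the spread estimated over V genes alone, 0 members passed in either contrast by edgeR's adjusted p (5 and 7 had an unadjusted p under 0.05), and DESeq2's Wald test called 3 in each. The calls below are those of edgeR's fit across all genes. None of them was made in the fit among V genes. By DESeq2's Wald test, also fitted across all genes, those of Trbv1, Trbv13-1 and Trbv23 in Foxp3 T cells were lost. So were those of Trav8n-2, Trbv29, Trav8d-1 and Trav14d-3-dv8 in Cd8b1 T cells. The adjusted p of these lost calls ran from 0.0515 for Trbv23 to 0.718 for Trav8n-2 by that test. In the Foxp3 contrast DESeq2 called 1 member higher and 2 lower, so Trbv19, Trbv20 and Trav10d were not all called lower by it.

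In Foxp3 T cells, Trbv1 was higher. Its level was 90.6, 49.6 and 101.5 CPM in Foxp3 T cells (wild type, no alopecia, alopecia) and 22.9, 43.8 and 41.9 CPM in Foxp3-negative Cd4 T cells. The classes did not overlap, and the log2 ratio was 1.30 ± 0.30 (SE, 3 libraries; edgeR adjusted p = 0.00466). By cells pooled over the 3 libraries, 30 of the 169 Foxp3 T cells with an assigned Trbv gene carried Trbv1 (17.8%, 12.3 to 24.4). Among Foxp3-negative Cd4 T cells with an assigned Trbv gene, 12 of 206 carried Trbv1 (5.83%, 3.05 to 9.95). These intervals leave out the spread between libraries. By library, 13 of 78, 2 of 19 and 15 of 72 Foxp3 T cells carried it, and in Foxp3-negative Cd4 T cells 6 of 119 in wild type and 1 of 31 without alopecia. By DESeq2's Wald test the log2 ratio was 1.10 (adjusted p = 0.159). With edgeR, without the wild-type library it was 0.83 (adjusted p = 0.205) and without the alopecia library 1.29 (adjusted p = 0.0501). Trbv12-1 was also higher, with 22.9, 41.3 and 8.59 CPM against 6.32, 2.09 and 2.15 (log2 ratio 2.10 ± 0.59, edgeR adjusted p = 0.0169), on 1 to 29 UMIs per sum. Its adjusted p rose to 0.0932 without the wild-type library and to 0.0784 without the no-alopecia library.

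Trbv19, Trbv23, Trbv20, Trbv13-1 and Trav10d were lower in Foxp3 T cells. Trbv19 stood at 12.6, 5.51 and 14.1 CPM against 59.3, 66.8 and 16.1 CPM in Foxp3-negative Cd4 T cells, with no overlap (log2 ratio -1.89 ± 0.43, edgeR adjusted p = 0.00353), and lost its call without the wild-type library (adjusted p = 0.135). Trbv23 stood at 1.58, 8.27 and 3.12 against 10.2, 100.2 and 9.68 CPM (log2 ratio -2.82 ± 0.71), and without the no-alopecia library its adjusted p was 0.0972. Trbv20 was at 10.3, 0 and 1.56 CPM against 19.5, 25.04 and 40.9 (log2 ratio -2.47 ± 0.73), and without the alopecia library its adjusted p was 0.220. For Trbv13-1 the direction was not shared by all libraries, since the no-alopecia library had 30.3 CPM in Foxp3 and 10.4 in Foxp3-negative Cd4 T cells (log2 ratio over the 3 libraries -1.32 ± 0.42). Its adjusted p was 0.413 without wild type and 0.245 without alopecia. Trav10d rested on 2 UMIs in Foxp3 and 32 in Foxp3-negative Cd4 T cells and had none in either class with alopecia.

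In Cd8b1 T cells, Trav8n-2 was higher. It had 259, 5 and 18 UMIs (146.2, 25.3 and 28.3 CPM) in Cd8b1 T cells and 0, 5 and 4 UMIs (0, 10.4 and 4.30 CPM) in Foxp3-negative Cd4 T cells, so Cd8b1 T cells were higher in all 3 libraries. The fitted log2 ratio was 5.01 ± 0.68 (edgeR adjusted p = 7.65e-05), and it depended on wild type, without which it was 2.05 (adjusted p = 0.334). DESeq2 gave 2.62 with an adjusted p of 0.718. By cells pooled over the 3 libraries, 36 of 122 Cd8b1 T cells with an assigned Trav gene carried it (29.5%, 21.6 to 38.4), against 1 of 154 Foxp3-negative Cd4 T cells and 3 of 138 Foxp3 T cells. By library the Cd8b1 T cells with it were 32 of 89 in wild type, 1 of 9 without alopecia and 3 of 24 with it, so the pooled share is mostly that of wild type.

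Trbv29, Trbv12-2, Trbv12-1 and Trav8d-1 were higher in Cd8b1 T cells as well. Trbv12-2 stood at 41.2, 111.4 and 61.4 CPM against 16.04, 4.17 and 15.1, with no overlap (log2 ratio 2.04 ± 0.44, edgeR adjusted p = 0.00649), and without the no-alopecia library its adjusted p was 0.0509. Trbv12-1 stood at 31.1, 45.6 and 14.2 CPM against 6.32, 2.09 and 2.15 (log2 ratio 2.65 ± 0.57), and was thus higher in both Foxp3 and Cd8b1 T cells than in the Foxp3-negative Cd4 T cells that both contrasts share. Without the wild-type library its adjusted p was 0.124. Trbv29 stood at 48.6 and 75.6 CPM against 10.7 and 7.53 in wild type and alopecia and had no UMI in either class without alopecia (log2 ratio 2.58 ± 0.46). Its adjusted p was 0.0502 without the alopecia library. Trav8d-1 had 2 to 23 UMIs per library in Cd8b1 T cells and 8, 0 and 0 in Foxp3-negative Cd4 T cells (adjusted p = 0.0493, and 0.0948 without the alopecia library).

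Trbv26 and Trav14d-3-dv8 were lower in Cd8b1 T cells. Trbv26 had 3, 0 and 0 UMIs against 18, 15 and 23 (log2 ratio -3.75 ± 0.84, edgeR adjusted p = 0.0083). None of the 171 Cd8b1 T cells with an assigned Trbv gene carried Trbv26. This allows up to 1.75% of such cells by the rule of 3 counts and 2.13% as the exact binomial limit for Trbv26. Its adjusted p was 0.112 without the alopecia library. Trav14d-3-dv8 had 4, 0 and 2 UMIs against 19, 81 and 20 (log2 ratio -3.74 ± 1.02, adjusted p = 0.0328), with 81 of the 120 UMIs of Foxp3-negative Cd4 T cells in the no-alopecia library. Without that library its adjusted p was 0.241, and without the alopecia library 0.0804.

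**Figure D3:**
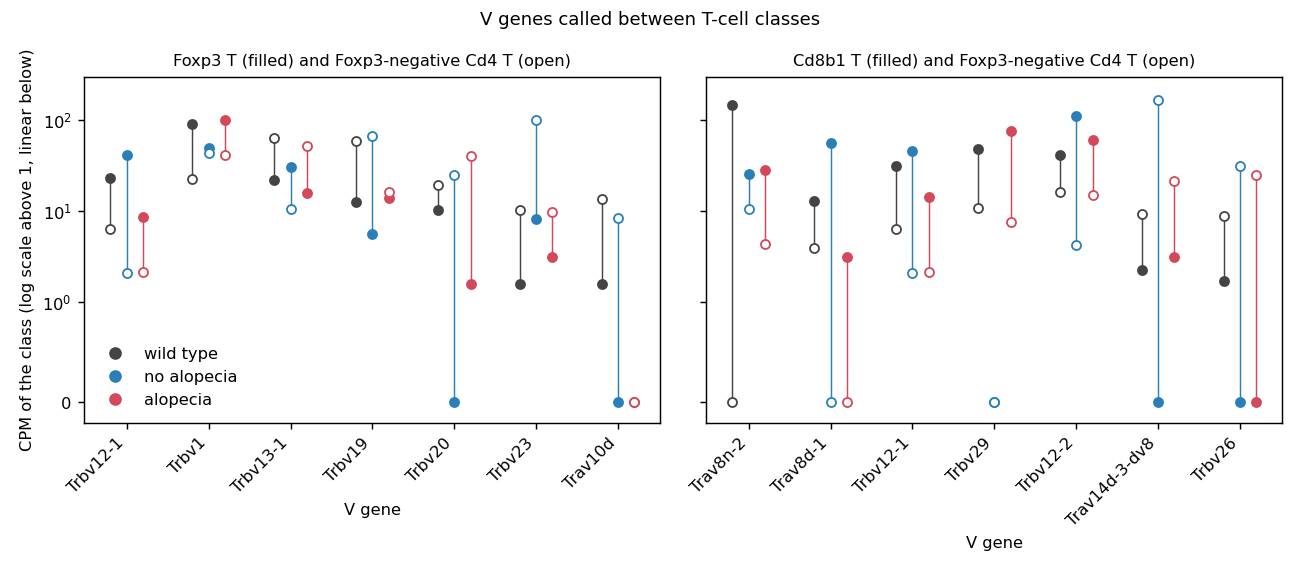
Level of each called V gene (x axis) in CPM of the class (y axis, log scale above 1 and linear below) in Foxp3 T cells (left, filled) or Cd8b1 T cells (right, filled) and in Foxp3-negative Cd4 T cells (open), 1 pair of points per library. Trbv1 lay between 49.6 and 101.5 CPM in Foxp3 T cells, above every value of Foxp3-negative Cd4 T cells, and Trav8n-2 reached 146.2 CPM in wild-type Cd8b1 T cells.

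Some alpha and beta genes recurred together. Both chains were assigned in 69, 20 and 45 alpha beta cells, with 57, 15 and 39 different pairs, and 8, 2 and 5 pairs were seen more than once. The most frequent pairs had 4 cells each, Trav14d-3-dv8 with Trbv23 without alopecia (4 of 20), and Trav7d-3 with Trbv3 and Trav16 with Trbv16 in wild type (4 of 69 each). Without alopecia Trav16n with Trbv3 was found in 3 cells, and with alopecia Trav4-4-dv10 with Trbv16 in 3. The joined region that identifies a clone is not read in these gene counts, so cells that share both V genes may or may not be 1 clone.

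The beta genes beside 6 of the alpha genes were then read with a minimum of 1 UMI, a choice made after their values were seen. Of 32 wild-type Cd8b1 T cells with an assigned Trav8n-2, 19 had a Trbv20 UMI (59.4%, 40.6 to 76.3), 12 a Trbv16 UMI (37.5%, 21.1 to 56.3) and 9 had both. Of the 305 other wild-type Cd8b1 T cells, 13 had a Trbv20 UMI (4.26%), 48 a Trbv16 UMI (15.7%) and 2 both. The Trbv20 counts were low, 41 UMIs over the 32 cells beside 18 of Trbv16. With alopecia the 3 Cd8b1 T cells with Trav8n-2 all had Trbv16 and none had Trbv20.

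Gzmb, the gene of a cytotoxic granule protease, was high in these wild-type Trav8n-2 cells. It stood at 2055 CPM (399 UMIs, found in 22 of 32 cells) against 568.8 CPM (897 UMIs, in 113 of 305) in the other wild-type Cd8b1 T cells, with median depths of 5141 and 4731 UMIs. The 3 Trav8n-2 cells with alopecia and the 1 without had no Gzmb UMI, against 15.9% and 37.1% of the other Cd8b1 T cells of those libraries. Itgae, an integrin of tissue-resident T cells, stood at 654.1 and 644.9 CPM, and Ifng at 401.7 and 372.9 CPM. Mki67, a proliferation marker, stood at 314.2 and 115.4 CPM, found in 15.6% and 13.8% of the cells.

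In Foxp3-negative Cd4 T cells without alopecia, 8 of 10 cells with an assigned Trav14d-3-dv8 had a Trbv23 UMI (interval 44.4% to 97.5%), against 4 of 82 others (4.88%). In the same class with alopecia, 6 of 7 cells with an assigned Trav13-4-dv7 had a Trbv26 UMI (85.7%), against 6 of 199 others (3.02%). In wild type, 4 of 5 with Trav7d-3 had a Trbv3 UMI, against 20 of 359 (5.57%). In Foxp3 T cells with alopecia, 4 of 9 with Trav4-4-dv10 had a Trbv16 UMI (44.4%), against 11 of 272 (4.04%). The Trav14d-3-dv8 and Trbv23 combination was also seen with alopecia, in both of the 2 Foxp3-negative Cd4 T cells with that alpha gene, and not in the 1 such wild-type cell. The higher levels of Trbv23 and Trav14d-3-dv8 without alopecia thus lay largely in the same 10 cells, which held 37 and 74 UMIs of the 2 genes.

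**Figure D4:**
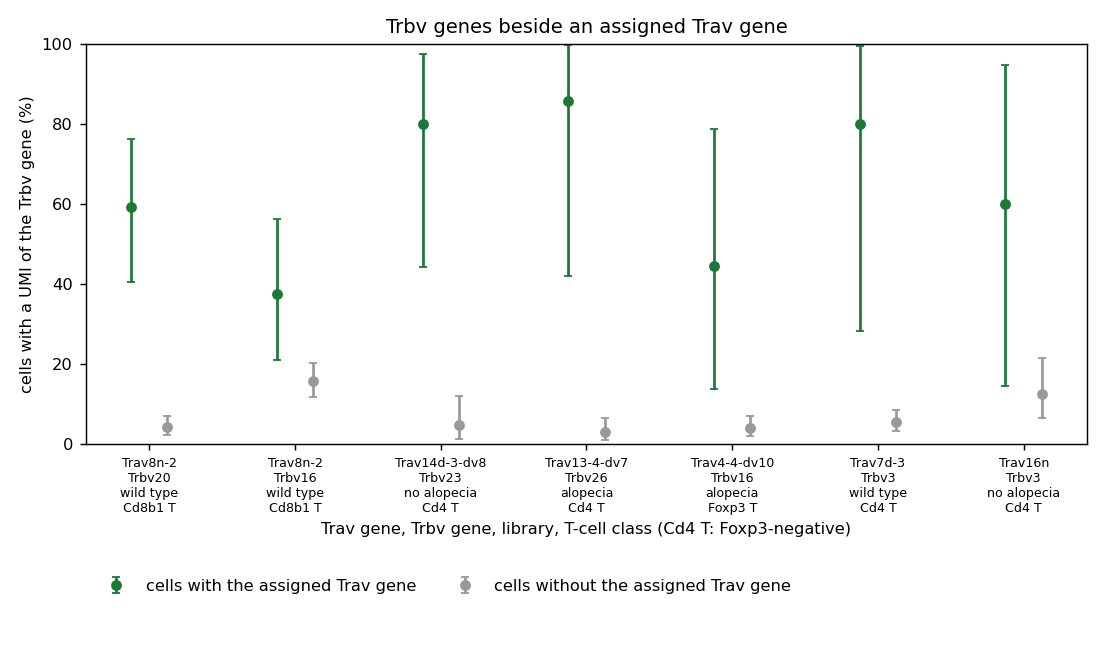
Percent of cells with at least 1 UMI of a Trbv gene (y axis) among cells of 1 class and library with the assigned Trav gene (green) and without it (grey), for 7 combinations (x axis), with exact binomial 95% intervals as bars. Trbv20 was found in 59.4% of wild-type Cd8b1 T cells with Trav8n-2 and in 4.26% of those without.

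The invariant alpha genes were rare. Trav1, used by MAIT cells, which see vitamin B metabolites on MR1, was assigned in 9, 5 and 6 T cells of all classes together, and 14 of these 20 cells met none of the class rules. Of the Trav1 cells, 6 of 9, 4 of 5 and 3 of 6 had a UMI of Zbtb16, the transcription factor of innate-like T cells, against 1.82%, 3.83% and 5.36% of T cells with another assigned Trav gene. Il17a was found in 4 of 9, 4 of 5 and 2 of 6 Trav1 cells, against 5.71%, 4.92% and 5.71%. A Trbv gene was assigned in 3, 3 and 2 Trav1 cells, and in 2 of each it was Trbv19 or a Trbv13 gene. Trav11, used by iNKT cells, had 26 UMIs over the 3 libraries and Trav11d had 0. No alpha beta cell had Trav11 assigned, but its V exon is 99.7% identical to that of Trav11d, and neither has an own window, so the level of the iNKT chain cannot be read from these counts.

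In gamma delta T cells most members were at lower levels, as the definition of that class by Trdc over Trac favours. Of all genes 26.7% passed in gamma delta against Foxp3-negative Cd4 T cells (14.2% higher, 12.5% lower), and 58 of 68 members did (3 higher, 55 lower), with a median log2 ratio of -4.64 for the members and 0.02 for all genes. The 3 higher members all belong to the Trav15 subgroup with dv in their symbol. Trav15d-1-dv6d-1 stood at 13.5, 28.4 and 9.38 CPM against 0.486, 0 and 0 (log2 ratio 5.34 ± 0.76, edgeR adjusted p = 4.24e-05). Trav15-2-dv6-2 stood at 11.9, 42.0 and 7.19 against 0.972, 4.17 and 0 (log2 ratio 3.62 ± 0.57), and Trav15-1-dv6-1 at 6.46, 14.8 and 5.45 against 0, 2.09 and 2.15 (log2 ratio 2.86 ± 0.79). All 3 were higher in all 3 libraries without overlap, but Trav15-1-dv6-1 lost its call without the wild-type library (edgeR adjusted p = 0.184). It also lost it by DESeq2's Wald test (adjusted p = 0.0541). Without the wild-type library 27 members were called, all 27 lower, so none of the 3 Trav15 members was called higher there. As shares of V gene UMIs 3 members were higher and 6 lower.

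Taken as a set, the 9 dv members were unlike the other Trav members in gamma delta T cells, but not every dv member was found there. At least 1 dv UMI was found in 10.2% (8.09 to 12.7), 21.2% (16.6 to 26.4) and 6.48% (5.01 to 8.21) of gamma delta T cells, and a UMI of another Trav member in 2.80%, 2.08% and 1.75%. Median depths were 4640, 5366 and 4421 UMIs. After each cell was thinned to 2000 UMIs the dv shares were 6.13% (4.47 to 8.16), 13.6% (9.88 to 18.2) and 2.65% (1.72 to 3.89), with 13, 2 and 29 shallower cells left out. The no-alopecia library thus had the highest share at equal depth and the alopecia library the lowest. In thinned cells without Cd3 UMIs, a choice that also favours few V gene UMIs, the dv shares were 0.150%, 0.161% and 0%. Trav13-4-dv7 (49, 71 and 12 UMIs), Trav15-2-dv6-2 (44, 71 and 33) and Trav15d-1-dv6d-1 (50, 48 and 43) led. A Trav15d-1-dv6d-1 UMI was found in 36, 33 and 30 gamma delta T cells, where 73, 61 and 63 had any dv UMI. Trav16d-dv11 and Trav4-4-dv10 had 0 UMIs in gamma delta T cells of any library, Trav14d-3-dv8 had 5, 0 and 0, and Trav6-7-dv9 had 1, 0 and 4.

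Cells with a dv segment mostly lacked Trdv4, the delta V segment of most gamma delta T cells here. Pooled over the 3 libraries, 3 of 59 gamma delta T cells with at least 3 UMIs of 1 dv member had a Trdv4 UMI (5.09%, 1.06 to 14.2). Of those with no dv UMI, 1389 of 1779 had one (78.1%, 76.1 to 79.98). By library the former were 1 of 21, 2 of 26 and 0 of 12. Median depths of these 2 kinds of cell were 7600 and 4563 UMIs in wild type, 5503 and 5276 without alopecia and 4775 and 4343 with it. Among cells whose gamma chain could be assigned, a dv UMI was found in 1 of 124, 2 of 59 and 2 of 213 cells with Tcrg-V5, the gamma gene of dendritic epidermal T cells, and in 3 of 173, 0 of 46 and 2 of 183 cells with Tcrg-V6. A Trdv4 UMI was found in 98.4%, 98.3% and 99.1% of the Tcrg-V5 cells and in all Tcrg-V6 cells. In cells with Tcrg-V1 a dv UMI was found in 11 of 14, 6 of 10 and 8 of 21, and in cells with Tcrg-V4 in 5 of 9, 1 of 9 and 4 of 26. Cells without a dv UMI had a Trdv4 UMI in 89.4%, 67.0% and 72.9% of cases.

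Beta V genes were also found in gamma delta T cells. At least 1 Trbv UMI was seen in 20.8%, 27.1% and 16.3% of them, and an assigned Trbv gene in 39 of 715, 24 of 288 and 38 of 973 cells (5.46%, 8.33% and 3.91%). In cells without Cd3 UMIs the assigned share was 0.121%, 0% and 0.0506%. Choosing those cells by the lack of Cd3 UMIs also favours few V gene UMIs, so free RNA in gamma delta T cells was not measured. Among the 101 gamma delta T cells with an assigned Trbv gene, Trbv15 (19 cells, 18.8%), Trbv20 (16 cells, 15.8%) and Trbv1 (12 cells, 11.9%) were most frequent. Of the 546 alpha beta cells with an assigned Trbv gene, 22 carried Trbv20. Trbv15, Trbv17 and Trbv20 did not pass the test between gamma delta and Foxp3-negative Cd4 T cells (log2 ratios -0.74 ± 0.50, -1.01 ± 0.53 and -1.22 ± 0.50, edgeR adjusted p = 0.33, 0.188 and 0.085), while Trbv1 was lower (log2 ratio -1.41 ± 0.34, adjusted p = 0.00427). The Trbv1 call was lost without the alopecia library (adjusted p = 0.0714) and where classes needed at least 2 UMIs of the class gene (log2 ratio -0.55, adjusted p = 0.46), and as a share of V gene UMIs its log2 ratio was 1.04.

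**Figure D5:**
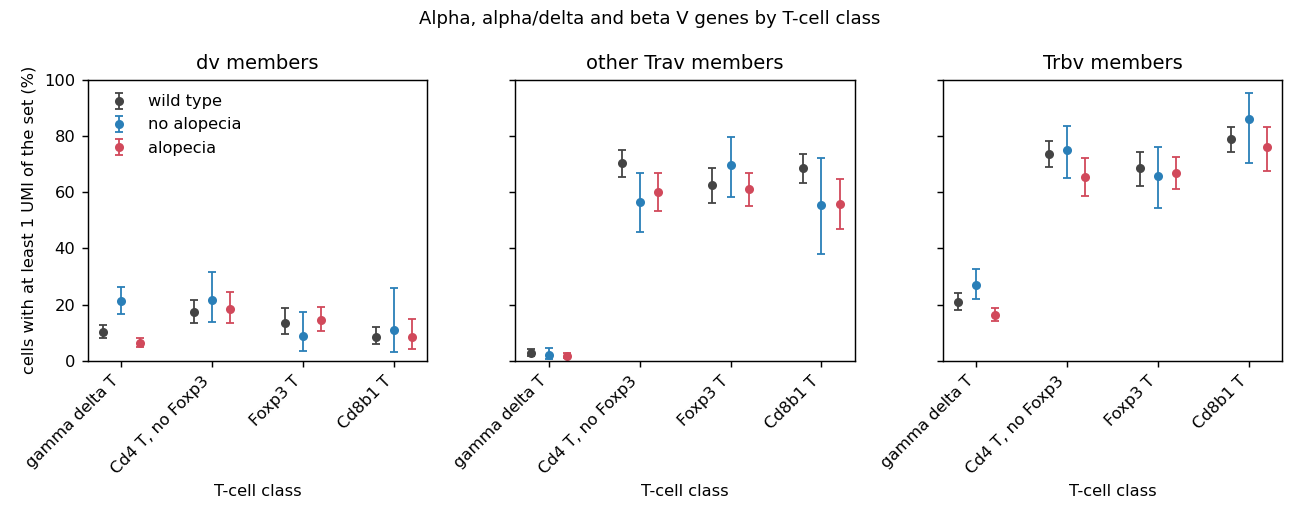
Percent of cells with at least 1 UMI (y axis) of the 9 dv members, the other Trav members and the Trbv members in 4 T-cell classes (x axis), with exact binomial 95% intervals as bars and 1 colour per library. In gamma delta T cells the dv members stood at 6.48% to 21.2% and the other Trav members at 1.75% to 2.80%.

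Many cells with a clear beta chain fell outside the 3 alpha beta classes. Among T cells that met no class rule, 426, 204 and 362 had an assigned Trbv gene, and 82.2%, 88.2% and 84.0% of these had no Cd4, Cd8b1 or Foxp3 UMI. No Trac UMI was found in 30.3%, 43.6% and 37.9% of them. In these cells the effective number of Trbv genes was 13.5, 17.3 and 15.2, beside 13.7, 9.91 and 14.4 in the alpha beta classes, so the no-alopecia library had the widest gap. V gene use in the classes therefore describes the cells in which the class genes were captured.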

How the data were processed

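The authors deposited raw UMI counts for each gene in each barcode, made with Cell Ranger 7.1.0 on build mm10, per the submitters' processing notes. The labels name no annotation release. Of 32285 gene identifiers 32158 were found in GENCODE vM21 (GRCm38), the source of coordinates and sequences, and all 163 Trav and Trbv symbols matched. Members and lists were chosen with earlier results of these data known. Cells were kept with at least 500 UMIs, 300 genes and at most 10% mitochondrial UMIs, and the highest doublet scores were removed at 0.4% per 1000 barcodes. The CD45-positive libraries shared 34 to 87 barcodes with each other. Counts were summed per class and library (12 sums) and tested with edgeR 4.0.16, with DESeq2 1.42.0 as an alternative, in R 4.3.3 and Python 3.11.15. SE is the log2 ratio divided by the root of the quasi-likelihood F. On simulated counts for the Foxp3 contrast (9466 genes), 88.7% of 97 4-fold and 67% of 97 2-fold changes were recovered, with 12 false calls.

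Named genes were the 10 Trbv and 10 Trav members with most assigned cells, members called between classes, up to 4 members each way between libraries, the invariant-chain genes and their partners, and leading dv members. A level of 0 was set to 3 counts for ratios. The assumption that the library is a replicate of the class contrast treats the 3 genotypes and phenotypes as a block. Alternatives were DESeq2 size factors, DESeq2's test, no filter, V gene shares, no block, each library left out, stricter or looser cell rules, other assignment rules, thinning, and, added after seeing the data, cells without a Trac UMI and leaving out wild-type Trav8n-2 cells.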

Additional observations from a re-analysis of the deposited data

Results flagged for a closer look

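The CD45-negative libraries were not used in the comparisons and held few member UMIs. There were 9 in the wild-type, 17 in the no-alopecia and 8 in the alopecia CD45-negative library, in 8, 13 and 6 barcodes, of which 1 in each library also had a Cd3 UMI. At 0.350, 0.146 and 0.195 CPM these lay above the limit of 3 counts and far below the 224.9 to 370.9 CPM of the CD45-positive libraries.

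Trav14d-3-dv8 went opposite ways between Foxp3 and Foxp3-negative Cd4 T cells. The log2 ratio was 1.36 in wild type, -4.94 without alopecia and -2.78 with alopecia, so that both deletion libraries went one way and the wild-type library the other. The difference was not tested, and 81 UMIs of the no-alopecia Foxp3-negative Cd4 T cells carry its largest value. In wild type 30 UMIs lay in 5 Foxp3 T cells (2.13% of the class) and 19 in 7 Foxp3-negative Cd4 T cells (1.92%). Foxp3 T cells held 2 UMIs in 1 cell without alopecia and 4 UMIs in 1 cell with it.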

How the results depend on the processing

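Counts of called members depended on how V genes were modelled. In Foxp3 against Foxp3-negative Cd4 T cells 7 members were called, 3 by DESeq2, 15 with no filter on low counts, 0 as shares of V gene UMIs, 4 with no condition on non-T markers and 4 to 7 with 1 library left out (4 without wild type). In Cd8b1 against Foxp3-negative Cd4 T cells 7 were called, 3 by DESeq2, 18 with no filter, 0 as shares of V gene UMIs and 6 to 7 with 1 library left out. For gamma delta T cells 58 were called, 9 as shares of V gene UMIs and 27 to 55 with 1 library left out (27 without wild type), and as such shares Trbv1 (1.04), Trbv12-2 (1.42) and Trbv13-2 (0.54) turned to higher log2 ratios. Without the replicate block 5, 5 and 43 members were called, and the library pairs the sums because each library is 1 set of cells. At a minimum of 2 UMIs the most frequent pair had 8 cells in wild type (Trav8n-2 with Trbv20) and 8 without alopecia (Trav14d-3-dv8 with Trbv23).

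Shares between libraries rest on few cells. Members past 2-fold were 3, 3 and 1 (alopecia against no alopecia, no alopecia against wild type, alopecia against wild type). With at least 2 UMIs the last 2 were 5 and 4, with at least 5 UMIs the first and last were 1 and 2, as shares of UMIs the 3 were 13, 20 and 14, and with Trav copies joined the first and last were 6 and 4. With cells without a Trac UMI the last 2 were 6 and 3, and without wild-type Trav8n-2 cells (added after seeing the data) the last was 0, as its only member past the fold was then removed by construction. After thinning to 2000 UMIs no member reached 20 cells and no value could be given. Among recomputed shares of named V genes 529 stayed within their interval and 55 left it. For single called members, 25 recomputed values lost the call in the Foxp3 contrast, 27 in the Cd8b1 contrast and 23 in the gamma delta contrast with their direction kept, beside the 3 gamma delta values above that turned. The cause of these changes was not tested. About 1 alpha beta cell in 3 had an assigned Trbv gene. After thinning to 2000 UMIs the wild-type share was 12.6% in Foxp3 T cells (33.2% before). It was 12.5% in Foxp3-negative Cd4 T cells (32.7% before) and 11.7% in Cd8b1 T cells (32.1% before). What else limits assignment was not tested.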
